A study of Mus musculus with 24 samples.

Results

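The genes described here carry out antigen presentation by major histocompatibility complex (MHC) class I and build the immunoproteasome that supplies its peptides. They are the heavy chains H2-K1 and H2-D1, the light chain B2m, the transporter subunits Tap1 and Tap2, the loading chaperone Tapbp, the immunoproteasome subunits Psmb8, Psmb9 and Psmb10, and the regulator Nlrc5. They were chosen by name for their function, with earlier results of these data known, and make up 10 of the 55421 genes in the count table. All 10 passed the filter on low counts and were tested.

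An MHC class I molecule is a heavy chain bound to β2-microglobulin that displays a peptide at the cell surface, where CD8+ T cells inspect it and NK cells sense its loss. The peptides come from proteins cut in the cytosol by the proteasome, pass into the endoplasmic reticulum through TAP, and are loaded with the help of tapasin. Inflammatory stimuli and interferons exchange the constitutive catalytic subunits of the proteasome for inducible ones, and NLRC5 is the transactivator of class I genes in the way that CIITA is for class II genes. Macrophages express these genes at rest and raise them when activated.

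The cells were bone marrow-derived macrophages (BMDMs) grown from wildtype mice and from AhR-KO mice, which lack the aryl hydrocarbon receptor (AhR), a ligand-activated transcription factor. Bone marrow of both genotypes was cultured with GM-CSF (10 ng/ml), TGF-β (2 ng/ml) and 10% fetal bovine serum, conditions meant to give macrophages that resemble those of the alveoli. From day 6 one part of the cultures received LPS at 97 EU/ml for 24 h, and the treatment protocol ends with 10 min of the Ca2+ ionophore A23187 at 5 µM, without saying whether unstimulated cultures received it too. This gave 4 groups of 6 RNA sequencing libraries, from 6 animals each: unstimulated WT, unstimulated AhR-KO, WT after LPS and AhR-KO after LPS. The AhR-KO allele is carried by every cell of the animal, including the marrow cells before culture. The labels give neither the ages of the animals nor which libraries share an animal.

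Libraries held 45106052 to 76992663 fragments counted on genes. The values below are counts per 1000000 (CPM) of the library size after TMM scaling, with n = 6 libraries per group. Library numbers run from 17 to 40 and form 3 runs of 8 numbers (17 to 24, 25 to 32 and 33 to 40) with 2 libraries of each group in every run. The labels do not call these runs batches, but several of the genes differed between them, so values within runs are given beside the pooled ones. Ahrr, a direct AhR target, had a median of 46.7 CPM in WT and 0.443 CPM in AhR-KO without stimulation, and 61.6 and 0.200 CPM after LPS. The counts of Ahr itself are summed over all exons of the gene and so do not check the genotype. They were lower in AhR-KO without stimulation (log2 fold change −1.93) and higher after LPS (1.36). Of the macrophage and alveolar macrophage markers, 7 of 7 and 8 of 8 averaged at least 1 CPM in every group.

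Promoter windows of 300 bases, from 250 before to 50 after the start of the transcript, were taken from RefSeq on the build GRCm38.p6 for 8 of the 10 genes. Tap2 and Nlrc5 had none. The 5 below are shown because they carry the motifs through which interferon and LPS signals are known to reach class I genes, or because a neighbour shares them. Capitals mark letters that fit an interferon-stimulated response element (ISRE, searched as a pair of GAAA with any 2 bases between them), a gamma-activated site (GAS, TTCNNNGAA) or an NF-kB site, on either strand.
H2-K1: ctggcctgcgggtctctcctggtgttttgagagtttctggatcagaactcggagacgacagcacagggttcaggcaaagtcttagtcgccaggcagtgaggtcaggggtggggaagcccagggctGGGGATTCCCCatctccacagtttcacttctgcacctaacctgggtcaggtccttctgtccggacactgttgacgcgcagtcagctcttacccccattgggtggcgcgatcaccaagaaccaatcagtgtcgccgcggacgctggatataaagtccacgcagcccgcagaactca
H2-D1: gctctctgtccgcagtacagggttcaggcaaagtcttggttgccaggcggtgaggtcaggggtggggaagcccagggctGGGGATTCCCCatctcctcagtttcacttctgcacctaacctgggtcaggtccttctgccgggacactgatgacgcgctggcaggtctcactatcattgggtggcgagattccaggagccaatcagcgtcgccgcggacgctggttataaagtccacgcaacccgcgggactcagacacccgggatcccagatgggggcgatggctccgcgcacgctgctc
B2m: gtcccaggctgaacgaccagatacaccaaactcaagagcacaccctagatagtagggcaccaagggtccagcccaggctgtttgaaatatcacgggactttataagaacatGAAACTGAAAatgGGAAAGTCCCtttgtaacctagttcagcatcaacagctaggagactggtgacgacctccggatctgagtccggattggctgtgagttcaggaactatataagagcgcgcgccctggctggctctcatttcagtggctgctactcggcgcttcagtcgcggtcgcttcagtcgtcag
Tap1: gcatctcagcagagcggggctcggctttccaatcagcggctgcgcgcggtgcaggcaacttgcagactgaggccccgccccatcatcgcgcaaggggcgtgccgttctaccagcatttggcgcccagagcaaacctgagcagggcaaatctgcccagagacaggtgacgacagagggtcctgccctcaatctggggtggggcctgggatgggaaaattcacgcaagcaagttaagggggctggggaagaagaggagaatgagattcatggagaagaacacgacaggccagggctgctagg
Psmb8: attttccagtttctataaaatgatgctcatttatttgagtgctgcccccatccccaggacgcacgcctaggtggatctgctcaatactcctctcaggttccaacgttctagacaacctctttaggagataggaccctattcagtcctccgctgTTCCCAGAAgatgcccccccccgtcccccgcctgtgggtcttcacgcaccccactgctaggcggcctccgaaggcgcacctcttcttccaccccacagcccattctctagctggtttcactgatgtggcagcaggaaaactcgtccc

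These windows lie in H2-K1 at chr17:34000284-34000583 on the minus strand, H2-D1 at chr17:35262844-35263143 on the plus strand, B2m at chr2:122147437-122147736 on the plus strand, Tap1 at chr17:34187306-34187605 on the plus strand and Psmb8 at chr17:34197945-34198244 on the plus strand. The windows of H2-K1 and H2-D1 held the same run of letters that fits an NF-kB site, which begins at −125 and −171 from the start. The window of B2m held an ISRE at −139 followed by an NF-kB match at −126. Psmb8 held a GAS at −97. Tap1 and Psmb9 are read away from each other, and their windows share 275 bases. Among the 8 genes, 1 held an ISRE, 1 a GAS, 3 an NF-kB match, 6 a Y box core (ATTGG), 5 a cyclic AMP response element core (TGACG) and 6 an AhR core (GCGTG). Over all 32544 promoter windows the shares were 3.45%, 8.33%, 4.53%, 37.4%, 20.9% and 32.6%. These shares count windows, of which the 8 genes have 9. Of the 9 windows, 1, 1, 4, 7, 6 and 7 held the motifs in the same order. The windows of H2-K1 and H2-D1 each hold more than 1 NF-kB match, which overlap. A match describes letters and not a bound site. The searches took exact patterns only, so H2-K1 and H2-D1, without an ISRE match, may still hold a variant of that element.

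In unstimulated WT BMDMs the genes spanned a wide range of levels. Per kilobase of exon, B2m was highest at 1324 ± 381 CPM (SD, n = 6), followed by H2-D1 at 427 ± 58.0 and H2-K1 at 385 ± 62.4 CPM per kilobase, whose ranges overlapped. Among the immunoproteasome subunits, Psmb8 stood at 105 ± 33.9, Psmb10 at 52.5 ± 13.0 and Psmb9 at 30.3 ± 10.3 CPM per kilobase. Tapbp was at 50.7 ± 20.4, Tap1 at 22.9 ± 4.93 and Tap2 at 20.6 ± 4.45 CPM per kilobase, and from Psmb8 down to Tap2 the ranges of neighbours in the order overlapped. Nlrc5 was lowest at 0.229 ± 0.194 CPM per kilobase, below every library of Tap2. The same order held in unstimulated AhR-KO except that Tapbp came before Psmb10. After LPS, H2-K1 moved above H2-D1, in 5 of 6 WT and in 6 of 6 AhR-KO libraries, while B2m stayed first and Nlrc5 last in both genotypes.

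**Figure D1:**
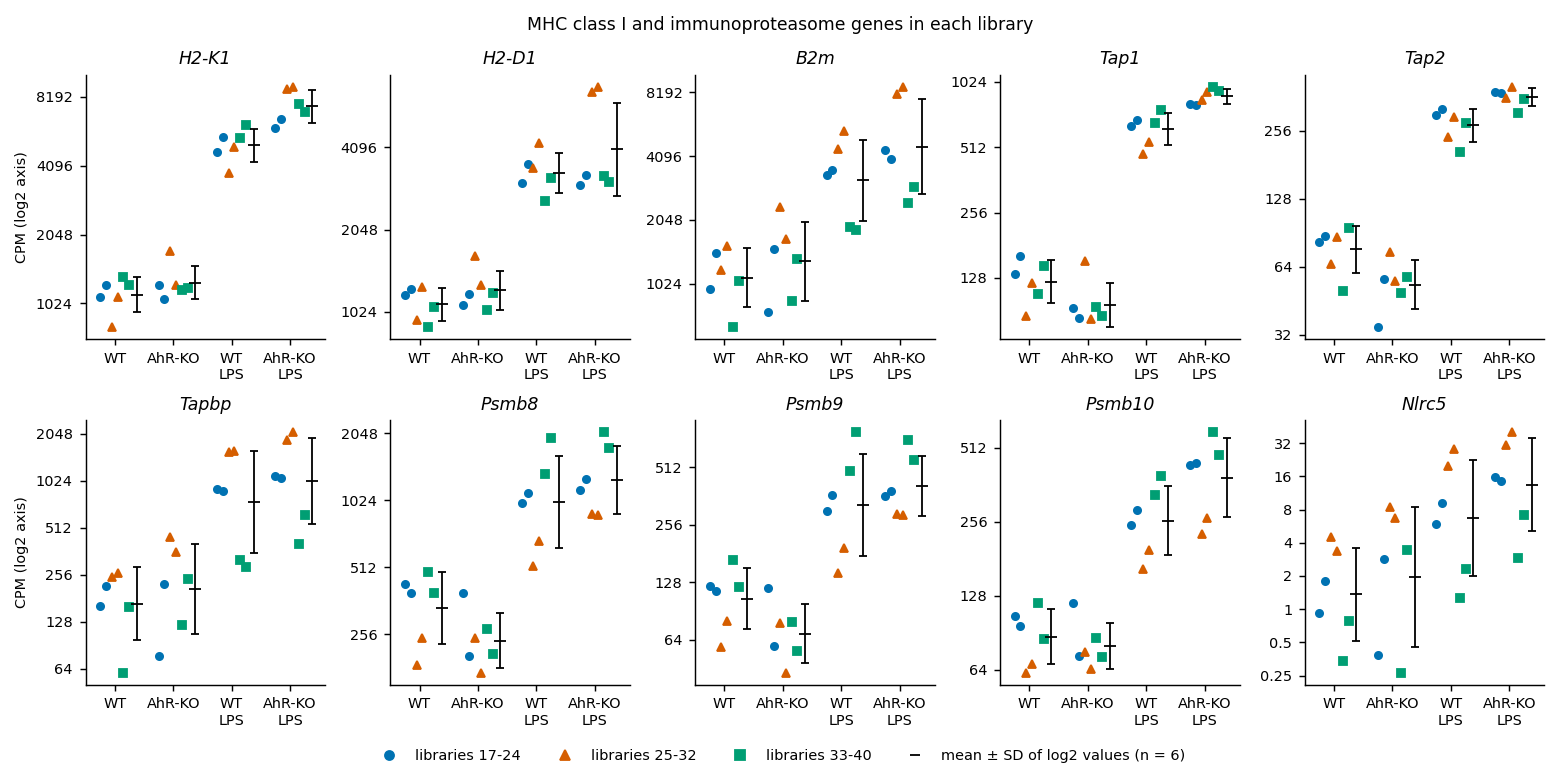
Each point is the level of a gene in 1 library, in CPM on a log2 axis, in the 4 groups, with colour and shape for the run of library numbers and the mean ± SD of the log2 values (n = 6) at the right of each group. The groups after LPS lie above the unstimulated groups for every gene, and within a genotype libraries overlap only for Tapbp, Psmb9 and Nlrc5, and within the groups Tapbp and Nlrc5 spread most.

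The genes differed in how much they varied between libraries of a group, and part of that variation followed the runs of library numbers. H2-K1, Tap1 and Tap2 were steady, with a pooled SD within groups of 0.24, 0.27 and 0.28 on the log2 CPM scale, below the median of 0.39 over the genes tested. Psmb8, B2m, Psmb9, Tapbp and Nlrc5 were not, with SDs of 0.55, 0.62, 0.63, 0.94 and 1.36. As deviations from the group means in log2 CPM, Nlrc5 averaged −0.17 in libraries 17 to 24, 1.40 in libraries 25 to 32 and −1.23 in libraries 33 to 40. Tapbp (−0.04, 0.89 and −0.85), B2m (−0.05, 0.61 and −0.55) and H2-D1 (−0.09, 0.30 and −0.21) had the same order. The immunoproteasome subunits had the opposite one, with 0.13, −0.54 and 0.41 for Psmb8, 0.09, −0.58 and 0.48 for Psmb9 and 0.17, −0.45 and 0.28 for Psmb10. For H2-K1, Tap1 and Tap2 the averages of the runs lay within 0.19 of each other.

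The libraries of the runs also differed in the slope of log2 CPM on log2 gene length, called the length slope below, which averaged 0.36, 0.53 and 0.26 in the 3 runs. It did not differ detectably between genotypes or with LPS (exact permutation tests over 6 against 6 libraries, p from 0.68 to 0.99). Over the 24 libraries, which share their runs and depth, the deviations of the genes from their group means followed that of the length slope, with Pearson r of 0.98 for Tapbp, 0.94 for Nlrc5, 0.92 for B2m and −0.91, −0.90 and −0.91 for Psmb8, Psmb9 and Psmb10, against 0.63 for H2-D1, 0.62 for Tap2, −0.22 for H2-K1 and −0.24 for Tap1. Tapbp and Psmb9, with r of opposite sign, have exons of 3628 and 3660 bases. Fits with the length slope as a covariate are given below beside the main ones. What gives rise to the slope was not tested. Each run holds 2 libraries of every group, so the comparisons of groups are balanced over runs.

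**Figure D2:**
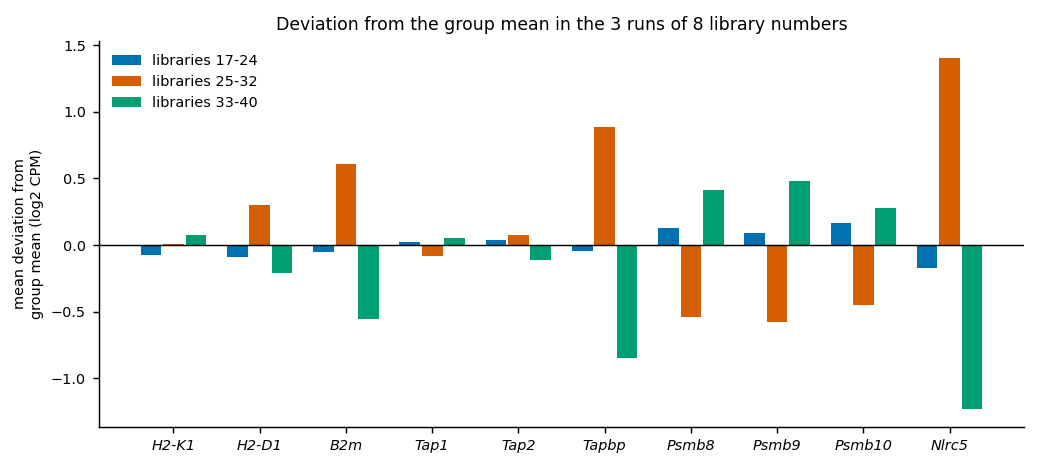
Bars show the mean deviation of each gene from its group mean in log2 CPM, over the 8 libraries of each run of library numbers. Nlrc5, Tapbp and B2m stand above 0 in libraries 25 to 32 and below 0 in libraries 33 to 40, Psmb8, Psmb9 and Psmb10 the other way round, and H2-K1, Tap1 and Tap2 stay near 0.

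LPS raised every one of the 10 genes in WT BMDMs. They were all DEGs with higher levels after LPS (edgeR, adjusted p not above 0.05 and a change of 1 or more on the log2 scale), where 13.2% of the genes tested were DEGs in that direction. Their median log2 fold change was 1.79, with a range from 1.58 to 2.51, against a median of 0.03 over all genes tested. For 8 of the 10 genes every LPS library lay above every unstimulated one, which was so for 11.4% of the genes tested. All 10 were higher in each of the 3 runs.

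Of the heavy chains, H2-K1 (ENSMUSG00000061232, chromosome 17, 33996017 to 34000347 of mm10) ran from 809.6 to 1335 CPM with a median of 1160 in unstimulated WT and from 3785 to 6173 with a median of 5162 after LPS. The groups were well apart, with a log2 fold change of 2.17 (standard error, SE, 0.16, adjusted p = 2.1e-10). H2-D1 (ENSMUSG00000073411, chromosome 17, 35262730 to 35267499) rose from a median of 1125 CPM (903 to 1260) to 3295 CPM (2608 to 4261), a log2 fold change of 1.60 (SE 0.21, adjusted p = 1.6e-06). B2m (ENSMUSG00000060802, chromosome 2, 122147686 to 122153083), the light chain that all class I heavy chains need, rose from 1122 CPM (641 to 1540) to 3416 CPM (1842 to 5400) in the median. Its log2 fold change of 1.58 had a SE of 0.35 (adjusted p = 8.7e-04) and the groups did not overlap.

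The TAP transporter moves peptides across the membrane of the endoplasmic reticulum as a pair of subunits. Tap1 (ENSMUSG00000037321, chromosome 17, 34187553 to 34197225) rose from a median of 127 CPM (85.9 to 161) to 650.2 CPM (475 to 761), a log2 fold change of 2.32 (SE 0.17, adjusted p = 2.3e-10). Tap2 (ENSMUSG00000024339, chromosome 17, 34203527 to 34216321) rose from 84.5 CPM (49.9 to 95.2) to 286 CPM (205 to 318), a log2 fold change of 1.81 (SE 0.17, adjusted p = 9.0e-09). Neither overlapped between the groups. Tapbp (ENSMUSG00000024308, chromosome 17, 33915899 to 33929292), which bridges TAP and the empty class I molecule, had 60.3 to 262 CPM before and 285 to 1582 CPM after LPS, with medians of 188 and 895 CPM. Its log2 fold change of 2.33 was as large as that of Tap1, with a wider SE of 0.51 (adjusted p = 7.0e-04).

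The immunoproteasome subunits replace their constitutive counterparts in the catalytic ring. Psmb8 (ENSMUSG00000024338, chromosome 17, 34197721 to 34201454) rose from a median of 391 CPM (185 to 485) to 1053 CPM (516 to 1941), a log2 fold change of 1.63 (SE 0.31, adjusted p = 1.7e-04). Psmb9 (ENSMUSG00000096727, chromosome 17, 34181987 to 34187764) rose from 118 CPM (58.4 to 168) to 335 CPM (143 to 779.8), a log2 fold change of 1.77 (SE 0.36, adjusted p = 3.4e-04), and its groups overlapped, since 1 LPS library lay within the unstimulated range. Psmb10 (ENSMUSG00000031897, chromosome 8, 105935735 to 105938444) rose from 90.7 CPM (62.2 to 119.6) to 267 CPM (165 to 393), a log2 fold change of 1.59 (SE 0.24, adjusted p = 1.3e-05).

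Nlrc5 (ENSMUSG00000074151, chromosome 8, 94434356 to 94527272) had the largest fitted change and the least certain one. It ran from 0.340 to 4.49 CPM with a median of 1.36 in unstimulated WT and from 1.27 to 28.2 CPM with a median of 7.62 after LPS, with overlap between the groups. The log2 fold change was 2.51 (SE 0.86, adjusted p = 0.023). The call was lost without replicate 17 (adjusted p = 0.0515), 30 (0.0741) or 34 (0.0516), with library totals instead of TMM and with limma-voom, so that 9 of the 10 genes were called in those fits. Within the runs, Nlrc5 was higher after LPS by 2.14, 2.45 and 1.11 on the scale of log2(CPM + 0.5).

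The response in AhR-KO BMDMs had the same direction. Again all 10 were DEGs with higher levels after LPS, beside 15.1% of the genes tested, and 8 did not overlap between the groups, beside 14.4%. The median log2 fold change was 2.38, from 1.80 to 3.16, against −0.03 over all genes. Tap1 rose most, from a median of 89.0 CPM (82.9 to 153) to 882 CPM (802 to 974), a log2 fold change of 3.16 (SE 0.18, adjusted p = 1.1e-12). Tap2 went from 55.9 CPM (34.6 to 73.8) to 367 CPM (307 to 401), a log2 fold change of 2.73 (SE 0.18, adjusted p = 8.5e-12).

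H2-K1 rose from 1214 CPM (1075 to 1743) to 7340.2 CPM (6000.1 to 9072) in the median, a log2 fold change of 2.56 (SE 0.16, adjusted p = 7.5e-12), whereas H2-D1 and B2m rose by 1.80 (SE 0.21, adjusted p = 2.1e-07) and 1.85 (SE 0.35, adjusted p = 1.4e-04). The immunoproteasome subunits Psmb8, Psmb9 and Psmb10 rose by 2.43, 2.57 and 2.32 on the log2 scale, with SEs of 0.32, 0.37 and 0.25 and no overlap between the groups. Tapbp rose by 2.29 (SE 0.50, adjusted p = 6.4e-04), with 5 of 6 LPS libraries above all unstimulated ones. Nlrc5 went from a median of 3.16 CPM (0.266 to 8.38) to 15.2 CPM (2.89 to 40.1), a log2 fold change of 2.33 (SE 0.85, adjusted p = 0.028). Its call was lost without replicate 19 (adjusted p = 0.0524), 20 (0.0539), 31 (0.0568), 32 (0.0753) or 35 (0.0518) and with total library size.

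Without stimulation no difference between the genotypes in these genes passed the test. None of the 10 was a DEG, and none had an adjusted p of at most 0.05, beside 4.48% and 6.12% of the genes tested. An unadjusted p under 0.05 was found for 2 of them, Tap1 and Tap2, and its share over all genes was not counted. DESeq2 called 1 of the 10, where it called 1422 of the 16593 genes tested. The median log2 fold change, AhR-KO over WT, was 0.02, with 5 genes above and 5 below 0. By role, the heavy chains, B2m, Tapbp and Nlrc5 were above 0, at 0.17 (H2-K1), 0.17 (H2-D1), 0.31 (B2m), 0.41 (Tapbp) and 0.92 (Nlrc5), and Tap1, Tap2 and the immunoproteasome subunits were below 0, from −0.13 (Psmb10) to −0.61 (Psmb9). Tap2 came closest to a call, with 55.9 CPM (34.6 to 73.8) in AhR-KO against 84.5 CPM (49.9 to 95.2) in WT, a log2 fold change of −0.52 (SE 0.16, adjusted p = 0.069). It was lower in AhR-KO in each run, by −0.93, −0.24 and −0.37. Over the 10 other settings its adjusted p ran from 0.0028 to 0.26. Tap2 was called in 4 of them, among these run as a factor (adjusted p = 0.044, edgeR), and without replicate 27 (0.023) or 33 (0.013). Tap1 was called without replicate 27 (−0.52, adjusted p = 0.035), the AhR-KO library in which it stood highest. Psmb8 and Psmb9 were also lower in all 3 runs, with adjusted p of 0.55 and 0.53.

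After LPS all 10 genes were above 0 in AhR-KO over WT, and for 1 of them the difference passed the test. None was a DEG, beside 8.36% of the genes tested. H2-K1 alone had an adjusted p of at most 0.05, beside 4.33% of the genes with a higher level at that threshold. It ran from 6000.1 to 9072 CPM (median 7340.2) in AhR-KO and from 3785 to 6173 CPM (median 5162) in WT, so that 5 of 6 AhR-KO libraries lay above all WT libraries, with a log2 fold change of 0.57 (SE 0.15, adjusted p = 0.014). H2-K1 was higher by 0.31, 1.06 and 0.35 in the 3 runs and stayed called when any 1 library was left out, but not with total library size (0.35, adjusted p = 0.091), a scaling under which the median of all genes moved to −0.26.

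Tap1 was the only gene of the 10 without overlap between the genotypes after LPS, with 802 to 974 CPM in AhR-KO above 475 to 761 CPM in WT, beside 2.59% of the genes tested without overlap in that direction. Its log2 fold change of 0.49 (SE 0.16, adjusted p = 0.054) missed the threshold. It passed it in 7 of the 10 other settings and without replicate 25, 27 or 38. For the remaining genes the log2 fold changes were 0.74 (Nlrc5), 0.60 (Psmb10), 0.58 (B2m), 0.41 (Tap2), 0.37 (H2-D1), 0.37 (Tapbp), 0.28 (Psmb8) and 0.19 (Psmb9), with adjusted p from 0.12 to 0.88. With run as a factor, which takes out the spread between runs, Psmb10 (0.58, adjusted p = 0.0077) and Tap1 (0.037) were called as well. The median over the 10 was 0.45, against −0.05 over all genes, and 9 of the 10 were higher in AhR-KO in all 3 runs. The exception was H2-D1, whose difference lay in libraries 25 to 32. There it was 0.81, and −0.08 and 0.13 in the other runs. With the length slope as a covariate, 7 of the 10 passed the adjusted p, and Nlrc5 became a DEG with a log2 fold change of 1.26. Over all 16593 genes tested, those past the adjusted p threshold numbered 2096, and 3092 with run as a factor and 5751 with the length slope.

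**Figure D3:**
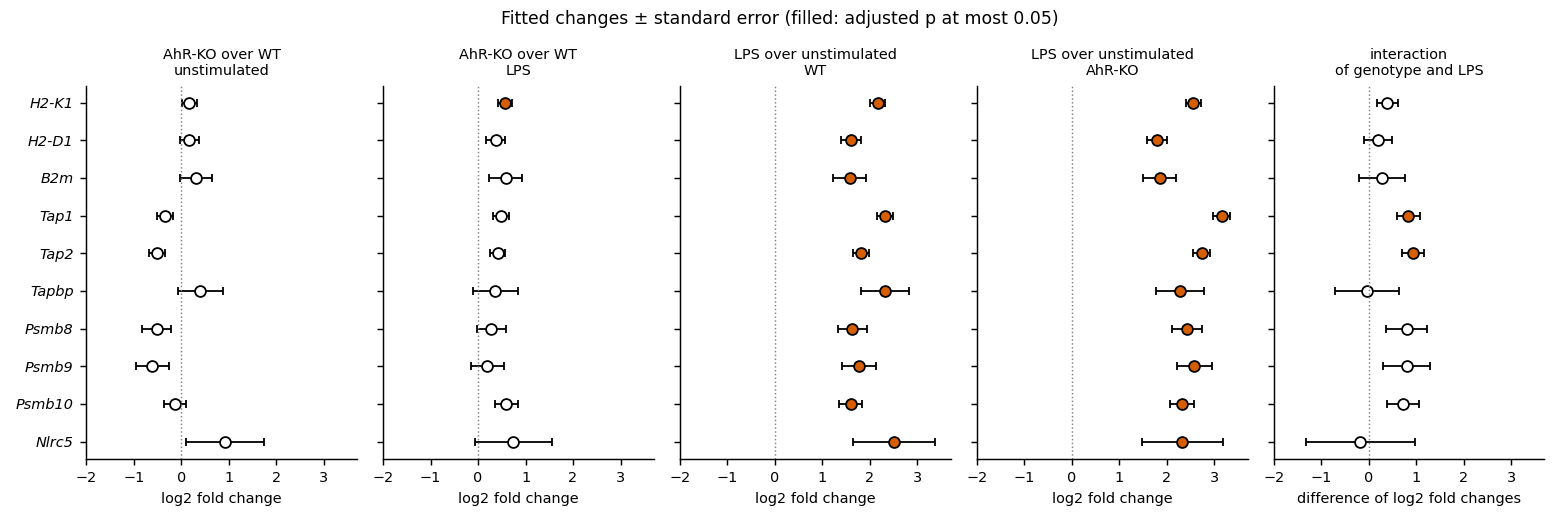
Points give the fitted log2 fold change of each gene in the 4 comparisons, and in the last panel the difference between the LPS effects of the genotypes (AhR-KO minus WT), with bars of 1 SE and filled points for an adjusted p of at most 0.05. All points are filled for LPS in both genotypes, H2-K1 for genotype after LPS, Tap1 and Tap2 for the interaction, and none for genotype without stimulation.

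The size of the LPS response differed between genotypes for the TAP subunits. The interaction, the LPS effect in AhR-KO minus that in WT, was 0.93 for Tap2 (SE 0.23, adjusted p = 0.021) and 0.84 for Tap1 (SE 0.23, adjusted p = 0.040). These 2 of 10 genes were called higher, beside 1.95% of the genes tested. The fitted difference between genotypes was below 0 for both subunits before LPS and above 0 after it, and the interaction was above 0 in each run, from 0.75 to 1.22 for Tap2 and from 0.66 to 1.01 for Tap1. The call for Tap2 held without any 1 of the 24 libraries. That for Tap1 held without replicate 25, 27, 31, 33 or 38 and was lost without any of the other 19, with adjusted p up to 0.085. Both were lost with total library size and without a filter on low counts, and Tap1 also without replicates 19 and 33 together (adjusted p = 0.051), an alternative chosen after the data were seen.

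Psmb8, Psmb9 and Psmb10 had interactions nearly as large, 0.80, 0.80 and 0.73, with wider SEs of 0.43, 0.49 and 0.34 and adjusted p of 0.46, 0.59 and 0.34. They were above 0 in all 3 runs and were called with the length slope as a covariate. That setting raised the calls over all genes from 713 to 2793. H2-K1 (0.40), B2m (0.27) and H2-D1 (0.20) were above 0 with adjusted p of 0.49 or more. Tapbp (−0.04) and Nlrc5 (−0.18) turned their sign under several other settings, with SEs of 0.68 and 1.14.

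The immunoproteasome subunits were set against the constitutive subunits whose places they take, as ratios of CPM per kilobase within a library, which do not depend on how libraries are scaled. Psmb8 over Psmb5, Psmb9 over Psmb6 and Psmb10 over Psmb7 were tested together with 6 other ratios in 4 comparisons, by comparing mean log2 ratios of 6 against 6 libraries in exact permutation tests (two-sided), for which 0.0022 is the smallest possible p. After adjustment over the 36 tests, 19 had an adjusted p of at most 0.05. All 3 subunit ratios rose with LPS in both genotypes. In WT the rise was 1.75-fold for Psmb8 over Psmb5 (adjusted p = 0.021, exact permutation test), 1.59-fold for Psmb9 over Psmb6 (0.012) and 1.76-fold for Psmb10 over Psmb7 (0.0065). In AhR-KO it was 2.51-fold, 2.41-fold and 2.16-fold (0.0065 each).

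The constitutive subunits are the catalytic subunits of the standard proteasome. Psmb5, Psmb6 and Psmb7 rose in AhR-KO by 1.09, 1.26 and 1.16 on the log2 scale (adjusted p = 0.042, 0.0068 and 0.0063, edgeR). In WT the log2 fold changes were 0.82, 0.998 and 0.78, with an adjusted p of at most 0.05 for Psmb6 only (0.033, called in 18 of 24 fits without 1 library). The DEGs among the 3 ran from 0 to 3 in WT and from 1 to 3 in AhR-KO without 1 library. The rise of Psmb5 in AhR-KO was called in 17 of 24 fits without 1 library.

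Between genotypes, 2 of the 6 tests of these ratios passed, and whether a difference changed with LPS was not tested. Psmb9 over Psmb6 ran from 0.138 to 0.259 with a median of 0.156 in unstimulated AhR-KO, and from 0.195 to 0.308 with a median of 0.271 in unstimulated WT. The ratio was 0.646 times as high in AhR-KO (adjusted p = 0.024, exact permutation test) and lower in each run, with log2 differences of −0.87, −0.34 and −0.67. After LPS the same ratio was 0.980 times as high (adjusted p = 0.89, exact permutation test). Psmb10 over Psmb7 ran from 1.44 to 1.95 in AhR-KO after LPS and from 0.971 to 1.57 in WT, with medians of 1.62 and 1.38. It was 1.27-fold higher in AhR-KO (adjusted p = 0.035, exact permutation test), with log2 differences of 0.44, 0.08 and 0.53 in the runs, and the call was lost without any 1 of 7 libraries. Psmb8 over Psmb5 was 0.752 times as high without stimulation and 1.08 times as high after LPS (adjusted p = 0.17 and 0.77, exact permutation test). Without stimulation it was lower in each run, by −0.87, −0.03 and −0.33 on the log2 scale, and it passed without replicate 33 (adjusted p = 0.043, exact permutation test).

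Among the other ratios, H2-K1 over H2-D1 rose 1.49-fold with LPS in WT (adjusted p = 0.037, exact permutation test, lost without any 1 of 9 libraries) and 1.80-fold in AhR-KO (0.0065). Tap1 over Tap2 rose 1.42-fold in WT (adjusted p = 0.035, exact permutation test, lost without any 1 of 6 libraries) and 1.34-fold in AhR-KO (0.070, and 0.0065 without replicate 19). The light chain did not detectably change against H2-D1 in any of the 4 comparisons, with ratios of the group means from 0.951 to 1.18. Against H2-K1, B2m was 0.640 times as high after LPS in WT and 0.587 times in AhR-KO, which did not pass (adjusted p = 0.24 and 0.085, exact permutation test). Without replicate 19 the latter passed (adjusted p = 0.037, exact permutation test). These tests do not take out the spread between runs. Within the runs the log2 differences were −0.60, −0.35 and −0.98 in WT, where every LPS library lay below the unstimulated ones of its run, and −0.47, −0.54 and −1.30 in AhR-KO. H2-K1 over H2-D1 after LPS was 1.22-fold higher in AhR-KO than in WT, which did not pass (adjusted p = 0.30, exact permutation test), with log2 differences of 0.39, 0.25 and 0.22 and no overlap within any run.

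The pair H2-K1 and H2-Ab1 was taken to set class I against class II. H2-K1 over H2-Ab1, a class II β chain, ran from 0.180 to 0.430 in unstimulated WT and from 0.691 to 1.24 in unstimulated AhR-KO, a difference of 3.08-fold, in a state in which H2-K1 itself was not called between genotypes. After LPS it ran from 1.62 to 2.85 in WT and from 4.06 to 7.35 in AhR-KO, a difference of 2.87-fold. LPS raised it 7.32-fold in WT and 6.81-fold in AhR-KO, and all 4 differences had an adjusted p of 0.0065 (exact permutation test). Nlrc5 over Ciita, the transactivators of class I and class II genes, was 3.16-fold higher in AhR-KO without stimulation (adjusted p = 0.017) and 20.5-fold higher after LPS (0.0065, exact permutation tests). The medians after LPS were 1.85 in WT and 30.8 in AhR-KO. Ciita had only 1 to 137 counts in the AhR-KO libraries after LPS, so that the last ratio is imprecise.

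**Figure D4:**
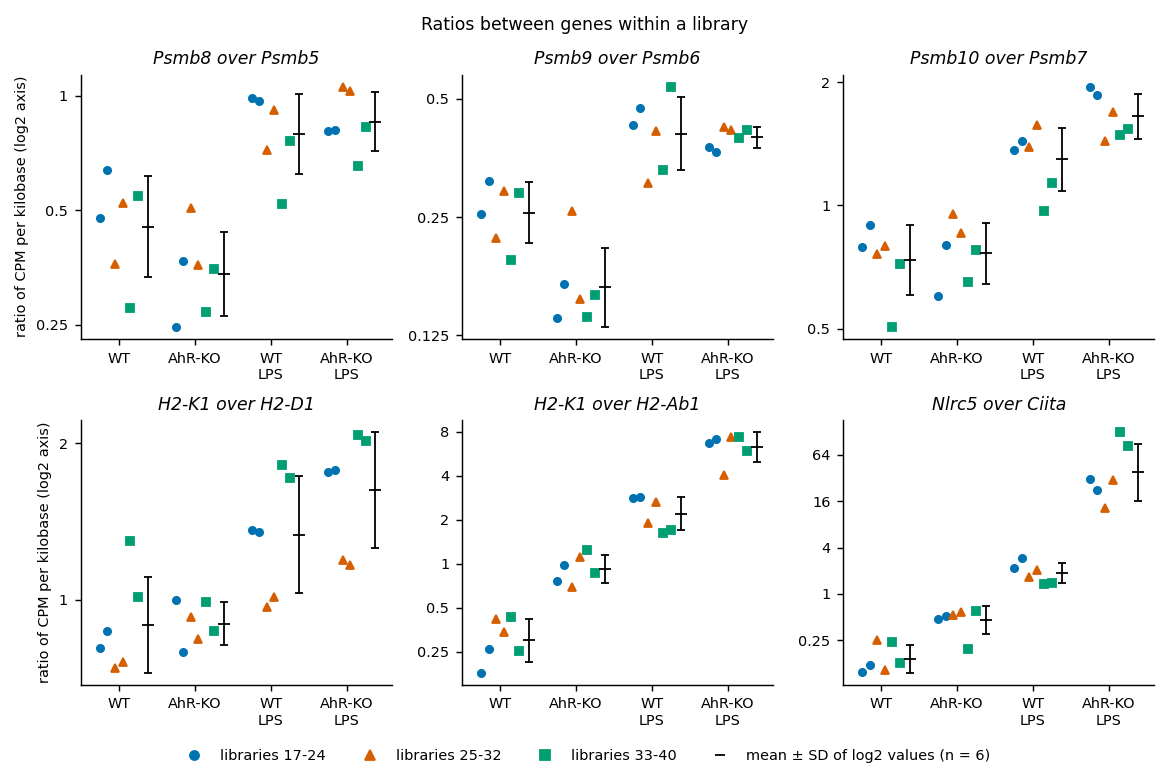
Each point is the ratio of the CPM per kilobase of a pair of genes in 1 library, on a log2 axis, in the 4 groups. The 3 ratios of immunoproteasome to constitutive subunits lie higher after LPS in both genotypes, and H2-K1 over H2-Ab1 and Nlrc5 over Ciita lie higher in AhR-KO in both states, by 3.08-fold and 3.16-fold without stimulation.

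Of the 15 other class I heavy chain genes listed, 14 were tested. As background for this and the next lists, DEGs among all genes tested were 13.2% higher and 11.8% lower with LPS in WT, 15.1% and 15.7% with LPS in AhR-KO, 0.916% and 3.57% for AhR-KO over WT without stimulation, and 2.17% and 6.19% after LPS, and 1.95% and 2.34% had an interaction above and below 0. LPS raised 13 of the 14 and lowered 1 in each genotype, with median log2 fold changes of 3.19 in WT and 4.04 in AhR-KO. H2-Q4, a heavy chain of the Qa region, rose by 3.55 and 3.99 on the log2 scale, and H2-Q6 by 5.16 and 6.61. The gene that fell was Mr1, which presents metabolites to MAIT cells, at −1.19 and −1.20. It was singled out after its values were seen. After LPS all 14 were above 0 in AhR-KO over WT, with a median of 0.82, 5 below the adjusted p threshold and 2 of them DEGs. The DEGs were H2-Q6 (1.30, adjusted p = 0.013) and H2-Q7 (1.15, adjusted p = 0.042, edgeR), and the latter was called in 15 of 24 fits without 1 library. H2-Q6 ran from 1240.1 to 1953 CPM in AhR-KO and from 269 to 835 CPM in WT after LPS, without overlap. The authors counted uniquely aligned reads, so that reads shared by near-identical Q region genes are missing from the counts. In 100-base windows, 0.957% of the H2-K1 exon sequence was shared with H2-Q10, H2-Q5 or H2-Q7, and 3.59% of that of H2-D1 with other class I genes.

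H2-M2 went another way. It was higher in AhR-KO without stimulation, at 36.8 to 109 CPM against 1.54 to 10.3 CPM in WT, a log2 fold change of 3.52 (SE 0.50, adjusted p = 4.7e-05). It rose with LPS in both genotypes, by 6.56 in WT and 4.09 in AhR-KO, and the interaction was −2.47 (adjusted p = 0.031, edgeR, called in 18 of 24 fits without 1 library). After LPS the log2 fold change between genotypes was 1.06 and not called.

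The genes of the peptide supply beyond the 10 were described from 2 lists. Of 10 genes of peptide loading and trimming, LPS raised 1 as a DEG in WT and 2 in AhR-KO, the latter 1 to 2 without 1 library. Tapbpl, a peptide editor related to tapasin, rose by 2.15 and 2.61 on the log2 scale, and Erap1, which trims peptides in the endoplasmic reticulum, by 0.57 (adjusted p = 0.026, called in 20 of 24 fits without 1 library and in 7 of 10 other settings) and 1.01. Calr, a chaperone of the loading complex, rose by 0.82 and 0.81 (adjusted p = 0.0040 and 0.0035, edgeR). None of the 10 was a DEG between genotypes in either state. Of the 11 further subunits of the 20S core, LPS raised 1 as a DEG in WT and 5 in AhR-KO, among them Psma7 at 1.06 and 1.46. Without 1 library these counts ran from 0 to 4 in WT and from 2 to 7 in AhR-KO. All 11 were below 0 in AhR-KO over WT without stimulation (median −0.16) and above 0 after LPS (median 0.20), and none passed the test in either state.

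The PA28 activator, whose subunits Psme1 and Psme2 open the 20S core and are inducible by interferon, rose strongly. Psme1 rose by 1.56 in WT and 2.29 in AhR-KO, and Psme2 by 1.95 and 2.36. Psme1 ran from 238 to 427 CPM in WT and from 406 to 554 CPM in AhR-KO after LPS, a log2 fold change of 0.53 (adjusted p = 0.011). Its interaction was 0.73 (adjusted p = 0.031, edgeR), and that call held in 13 of 24 fits without 1 library. Of the 9 genes listed as activators and assembly factors, 2 were higher and 1 lower as DEGs with LPS in WT, and 3 and 1 in AhR-KO, with medians of 0.24 and 0.21. The count of lower DEGs in WT ran from 0 to 1 without 1 library. Pomp, the maturation factor of the proteasome, rose by 0.83 in WT (adjusted p = 1.1e-05) and 1.27 in AhR-KO, and Psmg2, an assembly chaperone, was lower after LPS, at −1.06 and −1.18 (adjusted p = 0.0028 and 8.9e-04, edgeR). Of 6 cytosolic peptidases, LPS raised none and lowered 1 as a DEG, Thop1, which degrades peptides in the cytosol, by −1.03 in WT and −1.06 in AhR-KO. That count was 0 to 1 in each genotype without 1 library.

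Among 16 regulators of class I genes, LPS raised 7 as DEGs in WT and 6 in AhR-KO and lowered none. Irf1 rose by 1.96 and 2.08 and Irf9 by 1.38 and 2.16 on the log2 scale, and the interaction of Irf9, a DNA-binding subunit of the complex that type I interferon activates, was 0.78 (adjusted p = 0.022, edgeR). Irf8, which also binds ISREs and is known for its role in dendritic cells and monocytes, differed most. It ran from 474 to 1303 CPM in WT and from 32.4 to 183 CPM in AhR-KO after LPS, a log2 fold change of −3.79 (SE 0.38, adjusted p = 3.1e-07). LPS raised Irf8 in WT by 3.10, and the change in AhR-KO was 0.13. Ciita was lower in AhR-KO after LPS (−2.78, adjusted p = 0.046, edgeR), a call that held in 8 of 24 fits without 1 library.

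All 20 interferon-stimulated genes rose with LPS in both genotypes, with medians of 5.08 in WT and 6.51 in AhR-KO. In AhR-KO over WT, 4 were lower as DEGs without stimulation (median −0.81) and 8 were higher after LPS (median 1.20), and 11 had an interaction above 0. Rsad2 and Irf7, an antiviral effector and a regulator of type I interferon genes, were lower without stimulation (−1.58 and −1.46) and had interactions of 2.85 and 2.64. Iigp1 and Gbp3, GTPases of cell-autonomous defence, were higher after LPS (2.55 and 1.32). Across the other settings the 4 ranged from 1 to 6, the 8 from 4 to 13 and the 11 from 6 to 18, and without 1 library the 4 ranged up to 9. Of the feedback inhibitors of interferon signalling, Socs1 (−1.63) and Usp18 (−2.17) were lower in AhR-KO without stimulation, and their interactions were 1.63 and 2.95. The list of interferons, their receptors and these inhibitors had 10 genes tested. LPS raised 7 of them as DEGs in each genotype and lowered 1 in AhR-KO. Ifng, the gene of the classical inducer of the immunoproteasome, had no count in any unstimulated library and at most 0.163 CPM after LPS.

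Several class II genes were lower in AhR-KO in both states. Of 10, 6 were lower as DEGs in AhR-KO without stimulation (median −1.35) and 4 after LPS (median −0.81). As an effect of LPS, 2 were lower and 0 higher as DEGs in WT, and 5 lower and 2 higher in AhR-KO. H2-Ab1 was at 827 to 2204 CPM in unstimulated AhR-KO against 1694 to 5299 CPM in WT (log2 fold change −1.46, adjusted p = 0.0024), and at −0.94 after LPS (adjusted p = 0.037, edgeR, held in 17 of 24 fits without 1 library). H2-Oa and H2-Ob, the chains of a modulator of class II loading, were lower without stimulation (−2.17 and −4.15) and rose with LPS in AhR-KO (1.24 and 3.58), with interactions of 1.54 and 3.92. H2-Eb1 and H2-Aa were lower after LPS by −3.03 and −2.07. Of 10 genes of cross-presentation, by which cells load material they took up onto class I, Rab27a, a GTPase of vesicle traffic, was lower in AhR-KO in both states (−1.45 and −4.89), and Cybb, the NADPH oxidase subunit that slows degradation in phagosomes, rose with LPS in both genotypes (1.51 and 1.24).

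Markers of other cell types moved with genotype. The summed level of 10 dendritic cell markers was 94.6 to 249.5 CPM in unstimulated WT and 21.03 to 33.6 CPM in unstimulated AhR-KO, and 931 to 2876 and 156 to 1072 CPM after LPS. Of the 9 of these markers that were tested, 6 were lower DEGs in AhR-KO in each state, and 2 were higher without stimulation, Batf3 (1.23) and Clec9a (1.34), which were named after their values were seen. Cd209a was at 0 in WT and Cd207 in AhR-KO after LPS. The sum of 8 neutrophil markers was 1592 to 12651 CPM in unstimulated WT and 239.5 to 796 CPM in AhR-KO, and 711 to 8401 and 135 to 1017 CPM after LPS. The sum of 6 mast cell and basophil markers was at most 41.1 CPM, and higher in WT in both states. The sum of 5 stromal cell markers went the other way after LPS, at 9.91 to 27.7 CPM in AhR-KO against 0.792 to 9.22 CPM in WT, and 1 of the 5, Dcn, was a DEG (3.84). T and NK cell markers summed to at most 1.97 CPM and B cell markers to at most 0.347 CPM. In bulk RNA fewer cells of a type and less RNA per cell cannot be told apart, and the part of these cells in the differences between genotypes of class I, class II and interferon-related genes was not tested.

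Over the 24 libraries, the genes with a profile most like the mean standardized profile of the 10 were H2-Q6 (Pearson r = 0.994), Ccl5 (0.993), H2-Q4 (0.993), Rnf19b (0.992), Ifi205 (0.992), Trafd1 (0.992), H2-Q7 (0.991), Mx2 (0.990), Junb (0.990) and Il18bp (0.990). These values include the difference between unstimulated and LPS libraries that all of these genes share. The 10 genes themselves had r between 0.725 (Nlrc5) and 0.984 (Tap1) with that profile, of which they are part. Over the deviations from the group means the most alike were H2-Q7 (0.935), H2-Q6 (0.916), Mgl2 (0.867), Hpse (0.823), Ccr7 (0.817), H2-Q4 (0.814), Pdcd1lg2 (0.809), Tnfrsf9 (0.804), Trim30d (0.786) and Slc27a3 (0.777). There the 10 genes were far from uniform, with r of 0.831 for Tap1 and 0.787 for H2-K1, and of 0.181, 0.158 and −0.03 for Psmb9, Psmb8 and Psmb10.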

How the data were processed

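RNA of 24 cultures was sequenced as stranded polyA libraries (NEBNext Ultra II Directional). The authors demultiplexed with bcl2fastq 2.20.0, aligned reads to mm10 with GSNAP and counted fragments on Ensembl genes with featureCounts 2.0.1, reverse-stranded. The deposited values are raw counts per gene, with the exon length of each gene. The 92 spike-in sequences held 1 count in all and were left out, leaving 55421 genes, of which 55154 have a symbol. Fragments shared by genes on the same strand, such as Tapbp and Zbtb22, were not assigned, and Tap1 and Psmb9 overlap on opposite strands.

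All 24 libraries entered 1 edgeR 4.0.16 model (R 4.3.3, TMM, filterByExpr, robust quasi-likelihood F-test) with a coefficient per group and Benjamini-Hochberg adjustment over 16593 genes. The limits for a DEG were an adjusted p of 0.05 and a change of 1 on the log2 scale in either direction (interaction: adjusted p only). The 4 comparisons share groups. Values within runs use log2(CPM + 0.5). Ratios were tested in Python 3.11.15 (numpy 2.4.6, pandas 2.3.3; figures with matplotlib 3.10.9). The steps were tested on simulated data. Alternatives used DESeq2 1.42.0, limma 3.58.1, other scalings, filters and covariates, and 1 library left out at a time.

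The 10 genes, the 20 lists (192 symbols), motifs and ratios were chosen with earlier results of these data known. Named beside the 10 genes were up to 3 DEGs per list and comparison with the smallest adjusted p, a fixed set (Psmb5, Psmb6, Psmb7, Psme1, Psme2, Erap1, Tapbpl, Calr, Irf1, Ciita and H2-Ab1, with 1 further gene that is not reported here), and the 10 most alike in profile. In none of the 60 pairs within a group did 2 libraries agree within sampling noise (chi-square per degree of freedom from 16.3 to 1147), with a biological coefficient of variation of 49.1%.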

Additional observations from a re-analysis of the deposited data

Results flagged for a closer look

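The AhR-KO unstimulated library with replicate number 27 stood apart from the other 5 of its group for H2-K1 (1743 CPM) and Tap1 (153 CPM) by Dixon's criterion. These were 2 of 40 sets of 6 libraries tested, where chance gives about 1 in 20.

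The LPS effect differed between genotypes for Tap1 (interaction 0.84) and Tap2 (0.93) by the edgeR test of the difference itself (adjusted p = 0.040 and 0.021). Both calls were lost with total library size and without a filter, and that of Tap1 held in only 5 of 24 fits without 1 library. Both genes were higher after LPS in 6 of 6 libraries of each genotype.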

How the results depend on the processing

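No analysis paired by animal was possible because the labels do not say which libraries share an animal. Fits with run as a factor, which compare libraries within runs, are given below.

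Of the 10 genes, those with an adjusted p of at most 0.05 between genotypes without stimulation numbered 0, and 1 with DESeq2's test, 1 with run as a factor, 3 with the length slope as a covariate and 1 without replicates 19 and 33 together, an alternative chosen after the data were seen. After LPS they numbered 1, and 0 with total library size, 2 with DESeq2's size factors, limma-voom, DESeq2's test, a filter at a mean of 1 CPM, a fit of the 12 libraries alone or without replicates 19 and 33, 3 with run as a factor and 7 with the length slope. Nlrc5 was then 1 DEG with the length slope, and H2-K1 1 DEG without a minimum fold change, a setting that raised all DEGs to 2096 for genotype after LPS and to 6305 for LPS in WT. The interaction was called for 2 of the genes, for 0 with total library size or no filter, 1 without replicates 19 and 33 and 5 with the length slope. Over all genes it was called for 713, and for 1125 with DESeq2, 1201 with run as a factor and 2793 with the length slope. Over all genes, those past the adjusted p threshold between genotypes without stimulation numbered 1015, and 1422, 1498 and 2857 in these settings. After LPS they numbered 2096, and 2746, 3092 and 5751.

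With total library size the median of the genes after LPS was 1.43 in WT and 1.90 in AhR-KO, where the median of all genes was −0.31 and −0.52, and the DEGs for LPS were 1622 higher and 3163 lower in WT (2186 and 1951 with TMM), 1730 and 4398 in AhR-KO (2504 and 2601). For genotype after LPS they were 236 and 1351 (360 and 1027), and for the interaction 252 and 550 (324 and 389). Signs turned for Psmb9 in AhR-KO over WT after LPS (−0.0010, total library size), for the interaction of Tapbp (0.13 with limma-voom, 0.0033 with a mean of at least 1 CPM, 0.018 with run as a factor and 0.34 with the length slope) and of Nlrc5 (0.39 with limma-voom and 0.62 with the length slope), and for the log2 ratio of B2m over H2-D1 with LPS in AhR-KO (−0.045 without replicates 19 and 33). None of these was called, and the cause was not tested.

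With 1 library left out at a time, the genes past the adjusted p threshold numbered 0 to 2 between genotypes without stimulation and 1 to 2 after LPS, the DEGs for LPS 9 to 10 in each genotype, the called interactions 1 to 2 and the called ratios 16 to 21. Some uncalled values crossed 0. Psmb9 in AhR-KO over WT after LPS ranged from −0.013 to 0.53, and the interaction from −0.29 to 0.22 for Tapbp and from −0.61 to 0.35 for Nlrc5. Among log2 ratios in AhR-KO over WT without stimulation, H2-K1 over H2-D1 ranged from −0.048 to 0.11, B2m over H2-K1 from −0.12 to 0.24, B2m over H2-D1 from −0.0091 to 0.21 and Psmb10 over Psmb7 from −0.050 to 0.13. After LPS, B2m over H2-K1 ranged from −0.26 to 0.14, Psmb8 over Psmb5 from −0.015 to 0.18 and Psmb9 over Psmb6 from −0.11 to 0.051. With LPS, B2m over H2-D1 ranged from −0.17 to 0.069 in WT and from −0.045 to 0.19 in AhR-KO. Of the 10 genes Nlrc5 had the fewest counts, 15 to 2225 per library.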
